A study of Mus musculus with 15 samples.

Results

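The 36 genes described here make, sense, take up, export or store cholesterol, and were measured in RNA of whole mouse aortas on Affymetrix mouse expression arrays, with 1 array per mouse and 15 mice in all. They were chosen by name: a gene counted as measured when at least 1 probe set was annotated to that gene and no other, and where several such probe sets existed the brightest on average over the 15 arrays stood for the gene. By this rule 33 of the 36 genes were measured, out of 18193 genes with a probe set of their own. They comprised 17 of 18 enzymes of synthesis, 4 of 4 genes of the sterol sensor, 5 of 5 genes of uptake, 3 of 4 genes of efflux and 4 of 5 genes that move or release cholesterol inside the cell. Acat2, Nr1h2 and Soat1 had no such probe set and were not analysed here.

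All mice were male C57BL/6 animals lacking ApoE, the apolipoprotein that clears remnant lipoproteins from plasma, and were killed at 9 weeks. The 4 groups were ApoE null mice that were non-diabetic (4 mice, replicates 5 to 8) or diabetic (4 mice, replicates 1 to 4), and ApoE null/RAGE null mice that were non-diabetic (3 mice, replicates 13 to 15) or diabetic (4 mice, replicates 9 to 12). RAGE, encoded by Ager, is the receptor for advanced glycation end products. Streptozotocin, a toxin of the insulin-producing beta cells, was given from 6 weeks in 5 injections, 1 a day, each of 65 mg/kg, to make mice diabetic, and the non-diabetic mice received citrate buffer. The fourth non-diabetic ApoE null/RAGE null mouse yielded no usable cRNA, per the series design. The labels give a commercial breeder for the ApoE null mice and a university laboratory for the ApoE null/RAGE null mice, so the RAGE genotype and the colony cannot be told apart. The series asked 4 questions: what diabetes did in ApoE null aorta, what loss of RAGE did without diabetes, what diabetes did in ApoE null/RAGE null aorta, and what loss of RAGE did in diabetic aorta.

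The label of replicates 9 and 10 did not match the expression of a gene near Ager. Decr2, on the same chromosome, measured 5.32 to 6.01 on the 8 ApoE null arrays, 6.84 to 6.98 on the non-diabetic ApoE null/RAGE null arrays, and 7.40 and 7.56 on replicates 11 and 12. On replicates 9 and 10, also labelled ApoE null/RAGE null and diabetic, it measured 5.19 and 5.10. The 2 Ager probe sets gave no check of the deletion, since neither was lower in the RAGE null groups: they measured 3.08 to 3.66 and 4.17 to 5.36 over all arrays. The main differences that use the libraries labelled ApoE null/RAGE null diabetic are therefore given with and without replicates 9 and 10. The tissue label held: the smooth muscle markers Acta2 and Tagln measured 13.19 to 13.45 and 12.71 to 13.20. The brightest adipocyte markers were also high and varied more, with Adipoq at 11.42 to 12.35 and the brown fat gene Ucp1 at 10.48 to 12.31, and the macrophage marker Lyz2 ranged from 9.08 to 11.53. Array medians lay between 4.35 and 4.42. Values are given in the order of the replicate numbers.

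Cells obtain cholesterol by building it from acetyl-CoA through mevalonate, squalene and lanosterol, or by taking up lipoproteins. When membranes of the endoplasmic reticulum run low in sterol, SCAP escorts the transcription factor SREBP2 (gene Srebf2) to the Golgi for activation, and SREBP2 then turns on the enzymes of synthesis. INSIG proteins hold SCAP back when sterol is plentiful. Oxidised sterols activate the nuclear receptor LXR (Nr1h3 encodes LXR alpha), which raises the exporters ABCA1 and ABCG1 and the ubiquitin ligase MYLIP, which degrades lipoprotein receptors. In the artery wall these genes are best known from the macrophage foam cell, which takes up modified lipoprotein through scavenger receptors and exports cholesterol to apolipoprotein A-I and HDL.

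Promoter sequences are shown because the synthesis enzymes are the textbook set of co-regulated SREBP2 targets. The sequences are RefSeq's on the mouse build GRCm38.p6. The 250 bases before each annotated start were searched on both strands, and 29 of the 36 genes had an entry, with 36 promoters among them. Hmgcs1, which makes HMG-CoA, was the only synthesis gene of 15 whose window held the letters TCACNCCAC, the core of the sterol regulatory element, against 1.05% of all 32851 promoters. It lies on the plus strand at chr13:119690101-119690350. Capitals in the sequences mark this core and the CCAAT box, a site of the factor NF-Y, which reads ATTGG when it is on the other strand; the core and the CCAAT boxes do not overlap. The next 4 promoters were chosen after the expression values were seen. Msmo1 (methylsterol monooxygenase, minus strand, chr8:64733579-64733828) and Idi1 (isopentenyl diphosphate isomerase, plus strand, chr13:8885356-8885605) are synthesis genes described below. Pmvk (phosphomevalonate kinase, plus strand, chr3:89454291-89454540) had the smallest p of the 33 genes in 1 comparison, and the shown window is that of the 2 annotated starts that holds a CCAAT box. Abca1 (minus strand, chr4:53159896-53160145) is the efflux gene for contrast. Each sequence runs 5′ to 3′ and ends at the base before the start.
Hmgcs1: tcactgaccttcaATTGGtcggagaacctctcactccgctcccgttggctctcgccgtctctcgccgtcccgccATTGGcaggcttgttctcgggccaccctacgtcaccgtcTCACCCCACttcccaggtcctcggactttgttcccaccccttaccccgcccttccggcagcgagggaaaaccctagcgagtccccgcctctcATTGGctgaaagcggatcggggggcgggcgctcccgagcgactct
Msmo1: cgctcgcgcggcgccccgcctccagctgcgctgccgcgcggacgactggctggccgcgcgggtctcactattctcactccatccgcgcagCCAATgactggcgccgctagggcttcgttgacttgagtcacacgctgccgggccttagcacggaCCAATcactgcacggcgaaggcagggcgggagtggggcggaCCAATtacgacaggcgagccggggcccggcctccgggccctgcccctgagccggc
Idi1: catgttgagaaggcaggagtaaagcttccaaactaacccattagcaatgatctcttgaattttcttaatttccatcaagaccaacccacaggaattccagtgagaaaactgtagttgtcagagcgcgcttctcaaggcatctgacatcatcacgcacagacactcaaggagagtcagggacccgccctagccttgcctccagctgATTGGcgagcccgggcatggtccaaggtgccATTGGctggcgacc
Pmvk: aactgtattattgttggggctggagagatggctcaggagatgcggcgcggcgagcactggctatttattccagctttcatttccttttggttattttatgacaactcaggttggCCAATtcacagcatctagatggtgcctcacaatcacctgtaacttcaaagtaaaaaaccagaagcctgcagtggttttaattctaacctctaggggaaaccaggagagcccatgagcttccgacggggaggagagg
Abca1: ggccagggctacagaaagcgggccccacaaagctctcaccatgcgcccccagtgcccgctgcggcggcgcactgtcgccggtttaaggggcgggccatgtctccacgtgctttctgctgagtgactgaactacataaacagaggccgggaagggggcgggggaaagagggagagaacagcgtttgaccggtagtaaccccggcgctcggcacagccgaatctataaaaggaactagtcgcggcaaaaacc

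A CCAAT box was present in the window of 14 of the 15 synthesis genes (93.3%), against 39.4% of the genes measured on the array that have an entry and 33.8% of all promoters. It was found in 3 of 4 sensor genes, 3 of 4 uptake genes, 3 of 3 intracellular genes and 0 of 3 efflux genes. The longer classical form of the sterol element was in none of the members' windows and in 0.0731% of all promoters. The LXR element, searched only as an exact direct repeat of AGGTCA spaced by 4 bases, was likewise in none, and in 0.0152% of all promoters. Forms of these elements that differ in a fixed base were not searched, so their absence from the members' windows was not shown. A match is a string of letters in this window, not a measured site.

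No gene of the 33 passed the test in any comparison. The test was limma's moderated test fitted to all 45037 probe sets with Benjamini-Hochberg adjustment, and an adjusted p under 0.05 counted as a call. Of all probe sets, 0% were called for diabetes in ApoE null aorta, 0% for RAGE deletion without diabetes, 0% for diabetes in ApoE null/RAGE null aorta, 0.244% for RAGE deletion in diabetic aorta and 0% for the interaction, which asks whether the diabetes difference depends on RAGE. The B value above 0 that the series design names as its threshold also called 0 of the 33 genes in each. All differences below are therefore measured differences that did not pass, on the log2 scale, where 1 is a 2-fold difference, and a count at an unadjusted p under 0.05 is given beside its share over all 18193 genes. The comparisons share groups, so they are set side by side and not against each other.

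With diabetes in ApoE null aorta, 1 of the 33 genes was higher and 4 were lower at an unadjusted p under 0.05, where 7.27% of all genes were higher and 5.94% lower. The 2 groups did not overlap for 3 genes, all lower in diabetes, against 7.62% of all genes. Of the 33, 19 had a lower mean in diabetes and 14 a higher one, and the median difference was -0.04. The count of 5 rested on single mice: it was 2 without diabetic replicate 1, 8 without diabetic replicate 2, 3 without diabetic replicate 3, and 1 and 3 without non-diabetic replicates 5 and 8. With limma's array weights it was 3.

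Loss of RAGE without diabetes gave 2 genes higher and 0 lower, against 1.34% and 1.28% of all genes. The groups did not overlap for 2 genes, against 4.87% of all genes. The higher mean was in ApoE null/RAGE null aorta for 23 of the 33 genes, with a median difference of 0.09. Without non-diabetic ApoE null replicate 6 the count of 2 was 0, and without replicate 7, or without ApoE null/RAGE null replicate 13, it was 1.

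For diabetes in ApoE null/RAGE null aorta, 3 genes were higher and 3 lower, where 3.74% and 3.97% of all genes were. Groups did not overlap for 4 genes, 1 higher and 3 lower, against 6.68% of all genes. The mean was lower in diabetes for 22 of the 33 genes, and the median difference was -0.10, beside -0.02 over all genes. The count of 6 was 0 without diabetic replicates 9 and 10 together, 1 without replicate 10 alone, and 2 and 3 without non-diabetic replicates 13 and 15.

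With RAGE deletion in diabetic aorta, 5 genes were higher and 0 lower, where 6.62% and 11.3% of all genes were. Groups did not overlap for 3 genes, all higher in the ApoE null/RAGE null libraries, against 7.73% of all genes. The median difference of the 33 was 0.06. Without ApoE null diabetic replicate 2 the count was 12, and 3 genes passed the adjusted threshold: Scarb1 at 0.87 (limma adjusted p = 0.0213), Abca1 at 0.60 (0.0323) and Fdft1 at 0.62 (0.047). The count was 3 without ApoE null diabetic replicate 3, 8 without replicate 9, 3 without replicate 11, 9 without replicates 9 and 10, and 10 with array weights.

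The interaction had 1 gene higher and 1 lower, where 2.41% and 6.16% of all genes were. The count of 2 was 7 without ApoE null diabetic replicate 2, 1 without replicate 3 and 4 without replicate 4. It was 4 and 1 without ApoE null non-diabetic replicates 6 and 8, and 1 and 5 without ApoE null/RAGE null non-diabetic replicates 13 and 15. It was also 1 with a trended robust variance, and 1 when the dimmer probe sets were left out.

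**Figure D1:**
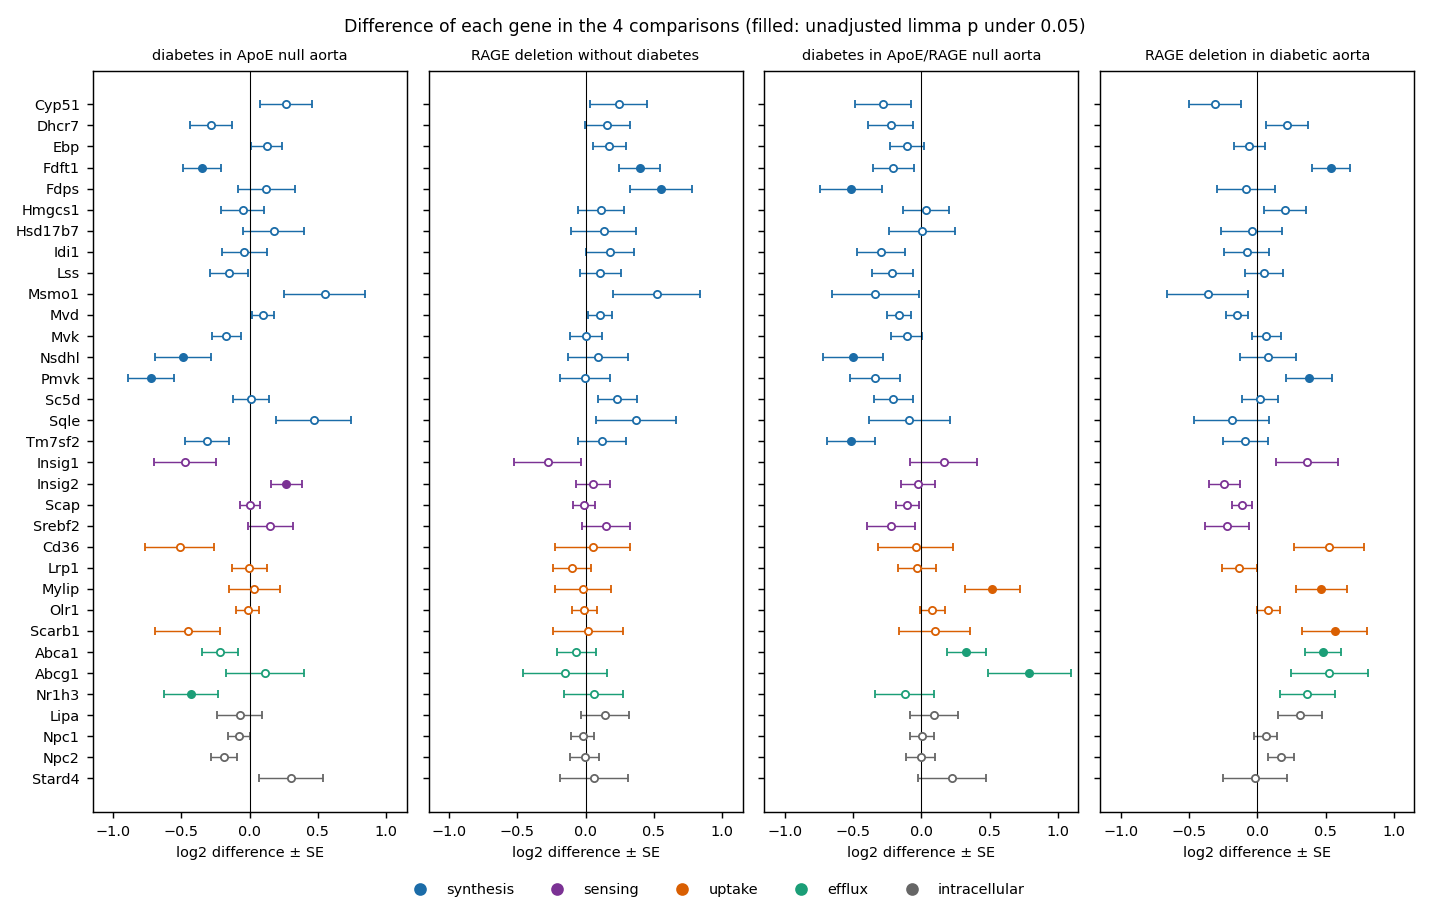
Log2 difference of each of the 33 genes (horizontal axis, with the standard error of the fit) in the 4 comparisons, coloured by role; filled points had an unadjusted limma p under 0.05. Nearly all synthesis genes lie right of 0 for RAGE deletion without diabetes (16 of 17, beside 50.6% of all genes). For diabetes in ApoE null/RAGE null aorta 15 of 17 lie left of 0, beside 55.8% of all genes. The 3 efflux genes all lie right of 0 for RAGE deletion in diabetic aorta, beside 49.4% of all genes.

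The synthesis enzymes showed no common direction with diabetes in ApoE null aorta: 9 of 17 had a lower mean and 8 a higher one, with a median difference of -0.04 and a range from -0.72 to 0.55. In the genotype comparison without diabetes 16 of 17 had a higher mean in ApoE null/RAGE null aorta, with a median of 0.16. Over all genes 50.6% had a higher mean there, with a median of 0.00. The synthesis median was 0.10 without replicate 13 and 0.25 without replicate 14, and the synthesis count was 13 of 17 without replicate 13 or without replicate 15. With diabetes in ApoE null/RAGE null aorta 15 of 17 had a lower mean, with a median of -0.21, beside 55.8% and -0.02 over all genes. Without replicates 9 and 10, 13 of 17 synthesis genes did, with a median of -0.15. Those comparisons share the 3 non-diabetic ApoE null/RAGE null arrays, whose synthesis values were the highest on average of the 4 groups. In diabetic aorta the RAGE genotypes differed in no common direction, with 9 of 17 lower and a median of -0.04, or 0.09 without replicates 9 and 10. Leaving out replicate 9 alone, 13 of 17 were lower in the third comparison, and leaving out replicate 11, 14 or 15, 17 of 17 were.

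Pmvk, the second kinase of the mevalonate pathway, had the smallest p of the 33 genes for diabetes in ApoE null aorta. It measured 7.13, 6.46, 6.47 and 6.77 on the ApoE null non-diabetic arrays and 5.82, 6.18, 6.11 and 5.84 on the ApoE null diabetic arrays, so the groups did not overlap. On the ApoE null/RAGE null arrays it measured 6.50, 6.43 and 7.18 without diabetes and 6.40, 6.33, 6.38 and 6.34 with diabetes, again with no overlap. Diabetes gave a difference of -0.72 ± 0.17 (SE, 4 against 4 mice, limma adjusted p = 0.284) in ApoE null aorta and of -0.34 ± 0.18 (limma adjusted p = 0.711) in ApoE null/RAGE null aorta, or -0.35 without replicates 9 and 10. Among diabetic mice the 4 ApoE null/RAGE null arrays all exceeded the 4 ApoE null arrays, by 0.38 ± 0.17 (limma adjusted p = 0.313), or 0.37 without replicates 9 and 10. Without diabetes the genotypes had equal means of 6.71.

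Fdft1, squalene synthase, which commits farnesyl pyrophosphate to sterols, had the smallest p for RAGE deletion in both disease states. Its levels were 9.78, 9.28, 9.44 and 9.82 in ApoE null non-diabetic aorta and 9.07, 9.47, 9.08 and 9.30 in ApoE null diabetic aorta, with overlap. They were 9.78, 9.86 and 10.29 in ApoE null/RAGE null non-diabetic aorta and 9.87, 9.76, 9.77 and 9.67 in the diabetic one. Every diabetic ApoE null/RAGE null array thus lay above every diabetic ApoE null array. The difference was 0.54 ± 0.14 (SE, 4 against 4, limma adjusted p = 0.104), and 0.49 without replicates 9 and 10. All 4 probe sets of Fdft1 were higher there, by 0.08 to 0.63. Without diabetes the genotype difference was 0.40 ± 0.15 (limma adjusted p = 1), and 0.24 without replicate 15. Diabetes in ApoE null aorta gave -0.35 ± 0.14 (limma adjusted p = 0.413).

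Fdps makes farnesyl pyrophosphate, the substrate of squalene synthase. Its probe set measured 6.22, 6.03, 6.28 and 6.18 in ApoE null non-diabetic aorta and 6.96, 6.30 and 6.93 in the ApoE null/RAGE null counterpart, with no overlap and a difference of 0.55 ± 0.23 (SE, limma adjusted p = 1). In diabetic aorta it measured 6.61, 6.13, 6.74 and 5.72 in ApoE null mice and 5.82, 6.27, 6.45 and 6.33 in ApoE null/RAGE null mice, which overlap widely. Diabetes in ApoE null/RAGE null aorta gave -0.51 ± 0.23 (limma adjusted p = 0.681), and -0.34 without replicates 9 and 10. The other Fdps probe set was at -0.03 between the non-diabetic genotypes and at -0.07 for diabetes in ApoE null/RAGE null aorta, so both differences rest on 1 probe set.

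Among the enzymes after lanosterol, Tm7sf2, a sterol reductase, had the smallest p of the 33 genes for diabetes in ApoE null/RAGE null aorta. It measured 6.30, 6.18 and 6.17 without diabetes and 5.43, 5.31, 6.02 and 6.03 with diabetes, without overlap. Its low values there were those of replicates 9 and 10: the difference was -0.52 ± 0.18 (SE, limma adjusted p = 0.674) and -0.19 without them. ApoE null aorta gave 6.40, 5.94, 5.96 and 6.09 without diabetes and 5.82, 5.88, 5.52 and 5.93 with it, also without overlap, at -0.31 ± 0.16 (limma adjusted p = 0.515).

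Nsdhl, a sterol dehydrogenase that helps strip methyl groups from lanosterol, had lower diabetic means in both genotypes. It measured 7.98, 6.87, 7.09 and 7.18 without and 6.71, 6.74, 6.89 and 6.82 with diabetes in ApoE null aorta, where 1 array of each group overlapped. The ApoE null/RAGE null arrays gave 7.34, 7.04 and 7.72 without and 6.58, 6.79, 6.98 and 7.12 with diabetes. The differences were -0.49 ± 0.20 (SE, limma adjusted p = 0.430) and -0.50 ± 0.22 (limma adjusted p = 0.681). Replicate 5 carried much of the former, which was -0.26 without that mouse, and the latter was -0.32 without replicates 9 and 10 and -0.33 without replicate 15.

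Dhcr7, the reductase that yields cholesterol from its direct precursor, was the third enzyme besides Pmvk and Tm7sf2 without overlap in ApoE null aorta. It measured 6.41, 5.98, 5.98 and 6.22 without and 5.80, 5.82, 5.94 and 5.90 with diabetes, at -0.28 ± 0.15 (SE, limma adjusted p = 0.533). In ApoE null/RAGE null aorta the values of 6.61, 5.95 and 6.36 without and 5.74, 6.19, 6.40 and 6.01 with diabetes overlapped.

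Msmo1 and Sqle (squalene epoxidase, which makes the epoxide that is cyclised to lanosterol) had higher diabetic means in ApoE null aorta, opposite in sign to Pmvk and Fdft1. Msmo1 measured 5.61, 6.88, 6.90 and 6.59 without and 6.85, 6.80, 7.40 and 7.13 with diabetes, at 0.55 ± 0.29 (SE, limma adjusted p = 0.527), with replicate 5 the low array. On ApoE null/RAGE null arrays it measured 7.65, 6.97 and 6.43 without and 6.26, 6.71, 7.10 and 6.64 with diabetes, at -0.34 ± 0.32 (limma adjusted p = 0.825), and these overlap. The interaction was -0.89 ± 0.43 (limma adjusted p = 0.701), and for the other Msmo1 probe set it was -0.01. It was -0.70 without replicates 9 and 10, -0.57 without replicate 13 and -0.59 without replicate 5. Sqle measured 6.37, 6.57, 6.84 and 6.49 without and 6.84, 6.69, 7.66 and 6.96 with diabetes in ApoE null aorta, at 0.47 ± 0.27 (limma adjusted p = 0.564). In ApoE null/RAGE null aorta Sqle measured 7.77, 6.76 and 6.28 without and 6.57, 7.14, 7.07 and 6.60 with diabetes. Its genotype difference without diabetes, 0.37, was -0.05 without replicate 13.

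Cyp51, the lanosterol demethylase, measured 5.71, 5.26, 5.91 and 5.57 in ApoE null non-diabetic and 5.47, 5.52, 6.44 and 6.10 in ApoE null diabetic aorta. The ApoE null/RAGE null arrays gave 6.05, 5.82 and 5.69 without and 5.50, 5.67, 5.63 and 5.49 with diabetes, where the groups did not overlap and the difference was -0.28 ± 0.21 (SE, limma adjusted p = 0.770), or -0.29 without replicates 9 and 10. Its interaction was -0.55 ± 0.28 (limma adjusted p = 0.711), which was -0.56 without replicates 9 and 10 and -0.36 without ApoE null diabetic replicate 3. Over the 3 Cyp51 probe sets the interaction ran from -0.92 to 0.09. Mvd, the decarboxylase that yields isopentenyl pyrophosphate, varied little, from 4.48 to 4.86 over all arrays. Its diabetic values were 4.68, 4.76, 4.86 and 4.66 in ApoE null and 4.62, 4.54, 4.48 and 4.71 in ApoE null/RAGE null aorta, and its non-diabetic values were 4.72, 4.75, 4.51 and 4.60 and then 4.75, 4.83 and 4.68. The interaction of -0.26 ± 0.12 (limma adjusted p = 0.686) was the 1 counted as lower, and was -0.25 without replicates 9 and 10.

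Sc5d, the sterol desaturase, measured 7.24, 7.46, 7.41 and 7.48 in ApoE null and 7.52, 7.59 and 7.79 in ApoE null/RAGE null non-diabetic aorta, without overlap, at 0.23 ± 0.14 (SE, limma adjusted p = 1), or 0.15 without replicate 15. With diabetes it measured 7.30, 7.29, 7.65 and 7.39 in ApoE null and 7.15, 7.19, 7.62 and 7.74 in ApoE null/RAGE null aorta. Ebp, the sterol isomerase, measured 7.16, 7.23, 7.34 and 7.11 and then 7.21, 7.51 and 7.43 in the same non-diabetic groups, at 0.17 ± 0.12 (limma adjusted p = 1), or 0.11 without replicate 14 and 0.26 without replicate 13. Its diabetic values were 7.37, 7.44, 7.29 and 7.25 against 6.93, 7.32, 7.33 and 7.52. Both genes overlapped between genotypes in diabetic aorta. Hmgcs1, which holds the sterol element core shown above, lay between 9.41 and 10.27 on all arrays, with differences of -0.05, 0.11, 0.04 and 0.20 in the 4 comparisons. The remaining enzymes, Mvk, Idi1, Lss and Hsd17b7, differed by -0.30 to 0.18 in the 4 comparisons.

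**Figure D2:**
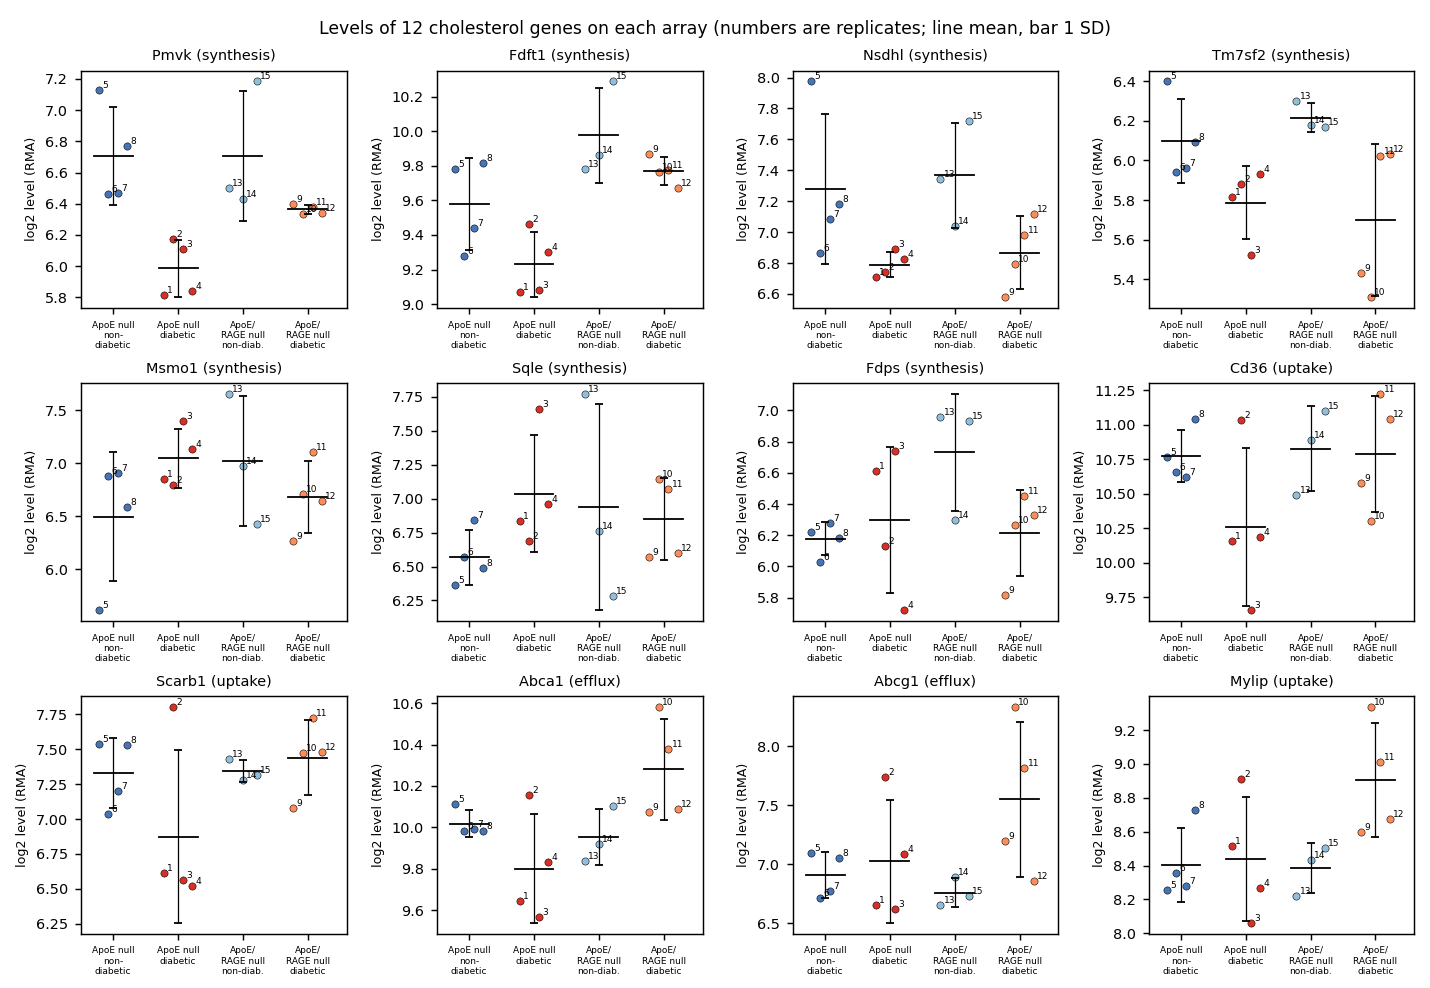
Log2 levels of 12 genes (vertical axes, on a scale of their own for each gene) on each of the 15 arrays by group, with replicate numbers, group means and bars of 1 SD. Pmvk in the diabetic ApoE null mice lies wholly below the other groups, and Scarb1 in those mice is 6.52 to 6.61 on 3 arrays and 7.80 on replicate 2.

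The synthesis genes varied together in part among mice of 1 labelled group. Replicates 9 and 10, whose label is in doubt, were centred together with replicates 11 and 12. A genotype difference among those arrays would thus count as variation among mice, and no pair is given without replicates 9 and 10 together. With the group means removed, the median Pearson r over the 136 pairs of the 17 enzymes was 0.15 across the 15 arrays. At permutation p-values adjusted over the pairs, 11 pairs were positive and 1 negative by Pearson correlation. By both Pearson and Spearman correlation, 3 were positive and 0 negative. The permutations shuffled the deviations over all arrays as if they were independent. Removal of the group means ties the deviations within each group, so these p-values can be too small. Idi1 and Cyp51 had r = 0.824 and rho = 0.800 (permutation p = 0.00015 and 0.00055, adjusted 0.019 and 0.0249), with r = 0.643 without replicates 1 and 3. Sqle and Msmo1 had r = 0.783 and rho = 0.850 (permutation p = 0.00066 and 0.00012, adjusted 0.019 and 0.0163), with r = 0.728 without replicates 3 and 13. Hsd17b7 and Dhcr7 had r = 0.758 and rho = 0.829 (permutation p = 0.00121 and 0.00029, adjusted 0.0231 and 0.0197), with r = 0.637 without replicates 11 and 13. The other positive pairs by Pearson alone joined Hmgcs1, Idi1, Hsd17b7 and Sqle among themselves, and Pmvk, Fdft1, Lss and Nsdhl among themselves. Pmvk and Fdft1 had r = 0.791 but an adjusted rho p of 0.0507. Pmvk ran against Msmo1 at r = -0.702 by Pearson, while the adjusted permutation p of its rho of -0.521 was 0.254, and without replicates 5 and 15 r was -0.341, so that relation rests on those mice.

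**Figure D3:**
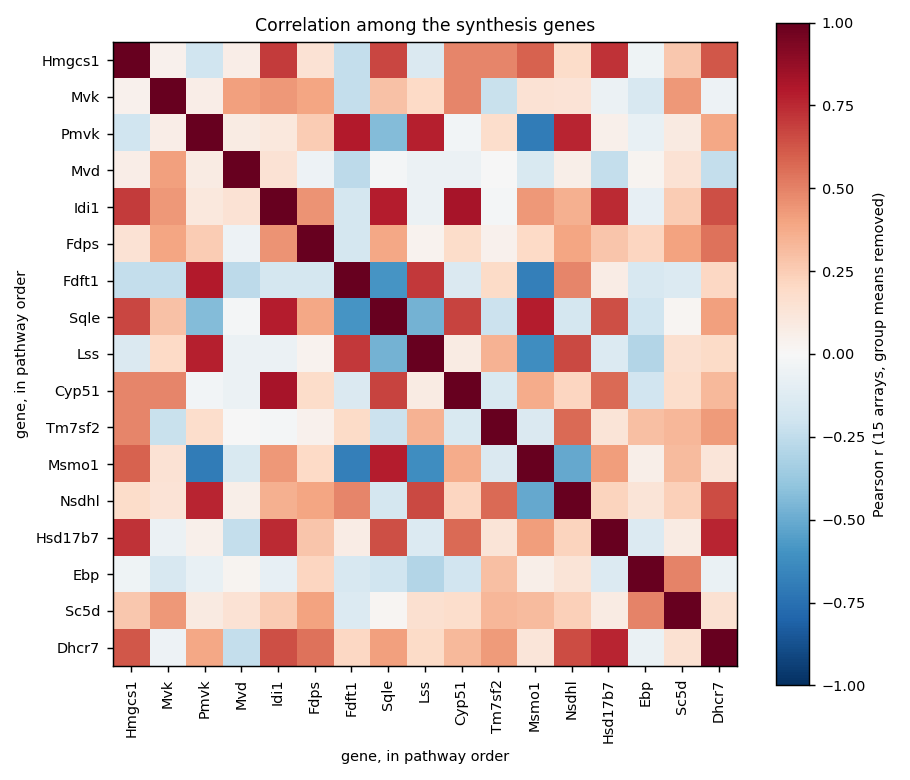
Pearson r between each pair of the 17 synthesis enzymes across the 15 arrays after removal of group means (colour scale from -1 to 1; genes on both axes in pathway order). Red blocks join Idi1 to Cyp51, Sqle to Msmo1, and Pmvk to Fdft1, and blue squares set Msmo1 against Pmvk.

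Of the sterol sensor genes, Srebf2 ranged from 6.67 to 7.50 and Scap from 7.57 to 7.89 over all arrays, and neither differed by more than 0.22 in size in any of the 4 comparisons. Insig2, which retains SCAP in the endoplasmic reticulum, measured 7.82, 8.33, 8.31 and 8.19 without and 8.57, 8.32, 8.53 and 8.30 with diabetes in ApoE null aorta, at 0.27 ± 0.11 (SE, limma adjusted p = 0.439) and 0.15 without replicate 5. On ApoE null/RAGE null arrays it measured 8.28, 8.15 and 8.21 without and 8.39, 8.07, 8.12 and 8.17 with diabetes, so that the diabetic genotypes differed by -0.24 ± 0.11 (limma adjusted p = 0.343), or -0.28 without replicates 9 and 10. Insig1, itself an SREBP target with the same function, had a difference of the opposite sign in ApoE null aorta. It measured 8.72, 7.75, 7.96 and 8.30 without and 7.22, 7.94, 7.65 and 8.02 with diabetes, at -0.47 ± 0.23 (limma adjusted p = 0.478), or -0.29 without replicate 5 and -0.31 without replicate 1. In ApoE null/RAGE null aorta Insig1 measured 7.94, 7.77 and 8.01 without and 7.81, 7.78, 8.61 and 8.08 with diabetes, and its interaction was 0.64 ± 0.33 (limma adjusted p = 0.719), or 0.91 without replicates 9 and 10. All of these groups overlapped.

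Uptake and efflux genes had their largest median differences of the 4 comparisons between the diabetic genotypes, where 4 of 5 uptake genes and 3 of 3 efflux genes had higher means in ApoE null/RAGE null aorta. The medians were 0.47 for uptake and 0.48 for efflux, beside -0.00 over all genes, and 0.41 and 0.43 without replicates 9 and 10. The uptake median is the value of Mylip, which degrades receptors, and the 4 higher genes include Olr1 at 0.08, or -0.04 without those replicates. With diabetes in ApoE null aorta 4 of 5 and 2 of 3 had lower means, beside 50.2% of all genes, with medians of -0.01 and -0.22. The 4 lower uptake genes include Lrp1 at -0.001 and Olr1 at -0.01. Between the diabetic genotypes the uptake median was 0.63 without ApoE null diabetic replicate 2 and 0.27 without the probe sets whose names mark possible shared probes. As these are whole aortas, fewer cells of a type and less RNA per cell cannot be told apart.

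Scarb1, the HDL receptor, set 1 diabetic mouse apart from the others. It measured 7.54, 7.04, 7.20 and 7.53 in ApoE null non-diabetic aorta and 6.61, 7.80, 6.56 and 6.52 in ApoE null diabetic aorta, where replicate 2 was above every non-diabetic array and the other 3 below all of them. The ApoE null/RAGE null arrays gave 7.43, 7.28 and 7.32 without and 7.08, 7.47, 7.73 and 7.48 with diabetes. The diabetic genotypes differed by 0.57 ± 0.24 (SE, limma adjusted p = 0.282), by 0.87 without replicate 2, and by 0.73 without replicates 9 and 10. All 3 Scarb1 probe sets were higher there, by 0.53 to 0.62. Diabetes in ApoE null aorta gave -0.45 ± 0.24 (limma adjusted p = 0.518).

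Cd36, a scavenger receptor and fatty acid transporter, also had 1 high array among the ApoE null diabetic mice. It measured 10.77, 10.66, 10.62 and 11.04 without and 10.16, 11.04, 9.66 and 10.19 with diabetes in ApoE null aorta, at -0.51 ± 0.25 (SE, limma adjusted p = 0.491), with replicate 2 again at the non-diabetic level. On ApoE null/RAGE null arrays it measured 10.49, 10.89 and 11.10 without and 10.58, 10.30, 11.22 and 11.04 with diabetes. The diabetic genotypes differed by 0.52 ± 0.25 (limma adjusted p = 0.357) and by 0.87 without replicates 9 and 10 (limma adjusted p = 0.162). Over the 3 Cd36 probe sets the difference ran from -1.07 to -0.51 for diabetes in ApoE null aorta and from 0.52 to 1.04 between the diabetic genotypes, and none passed. Cd36 is abundant in adipocytes as well as macrophages.

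Mylip, the ligase that removes lipoprotein receptors, had its highest values in the diabetic ApoE null/RAGE null libraries. It measured 8.60, 9.34, 9.01 and 8.67 there and 8.22, 8.43 and 8.50 without diabetes, with no overlap and a difference of 0.52 ± 0.20 (SE, limma adjusted p = 0.674). Without replicates 9 and 10 this was 0.46. In ApoE null aorta it measured 8.25, 8.35, 8.28 and 8.73 without and 8.51, 8.91, 8.06 and 8.27 with diabetes, and the diabetic genotypes differed by 0.47 ± 0.19 (limma adjusted p = 0.258) with overlap through replicate 2, or by 0.41 without replicates 9 and 10. Lrp1, the receptor for remnants and proteases, differed by at most 0.13 in size in the 4 comparisons, from 9.47 to 10.04 over all arrays. Its other probe set gave -0.24, -0.42, 0.50 and 0.33 in the 4 comparisons, where the brighter gave -0.001, -0.10, -0.03 and -0.13. Olr1, the receptor for oxidised LDL on endothelium, measured 2.09 to 2.42 on all arrays, near the bottom of the array scale.

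Abca1, which loads cholesterol onto apolipoprotein A-I, had the smallest p of the 33 genes for the interaction. It measured 10.11, 9.98, 9.99 and 9.98 without and 9.64, 10.16, 9.57 and 9.84 with diabetes in ApoE null aorta, where 3 diabetic arrays were below all non-diabetic ones and replicate 2 above them. The ApoE null/RAGE null arrays gave 9.84, 9.92 and 10.10 without and 10.08, 10.58, 10.38 and 10.09 with diabetes. Diabetes gave -0.22 ± 0.13 (SE, limma adjusted p = 0.587) in the former and 0.33 ± 0.14 (limma adjusted p = 0.681) in the latter, with an interaction of 0.55 ± 0.20 (limma adjusted p = 0.675). Without replicates 9 and 10 the latter was 0.28 and the interaction 0.50. The diabetic genotypes differed by 0.48 ± 0.13 (limma adjusted p = 0.120), by 0.60 without replicate 2 and by 0.43 without replicates 9 and 10. Of the 3 Abca1 probe sets, 2 were higher there and 1 was at -0.07.

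Abcg1, which exports cholesterol to HDL, had the largest difference of the 33 genes for diabetes in ApoE null/RAGE null aorta. It measured 6.66, 6.89 and 6.73 without and 7.19, 8.33, 7.82 and 6.85 with diabetes, at 0.79 ± 0.31 (SE, limma adjusted p = 0.674), 0.53 without replicate 10, the highest array, and 0.58 without replicates 9 and 10. Its ApoE null values were 7.10, 6.72, 6.77 and 7.05 without and 6.65, 7.74, 6.62 and 7.08 with diabetes, where replicate 2 was again the high one. The diabetic genotypes differed by 0.53, or by 0.31 without replicates 9 and 10. Abcg1 lies within 20 Mb of Ager on chromosome 17, so a strain difference carried with the deleted allele cannot be told apart from the deletion. Nr1h3 measured 6.33, 5.99, 6.04 and 6.15 without and 5.86, 6.06, 5.40 and 5.47 with diabetes in ApoE null aorta, at -0.43 ± 0.20 (limma adjusted p = 0.468). In ApoE null/RAGE null aorta Nr1h3 measured 5.91, 6.24 and 6.41 without and 5.61, 5.76, 6.41 and 6.46 with diabetes. The diabetic genotypes differed by 0.37 ± 0.20 (limma adjusted p = 0.418) in Nr1h3 and, without replicates 9 and 10, by 0.74 (limma adjusted p = 0.112).

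The intracellular genes had medians of -0.08, 0.03, 0.05 and 0.12 in the 4 comparisons. Lipa, the lysosomal lipase that frees cholesterol from its esters, measured 7.37 to 7.99 in ApoE null diabetic and 7.63 to 8.27 in ApoE null/RAGE null diabetic aorta, at 0.31 ± 0.16 (SE, limma adjusted p = 0.398) and 0.53 without replicates 9 and 10. Npc2, which passes that cholesterol on within the lysosome, measured 10.29, 10.52, 10.40 and 10.54 in the former and 10.56, 10.70, 10.60 and 10.58 in the latter, without overlap, at 0.17 ± 0.10 (limma adjusted p = 0.428), or 0.15 without replicates 9 and 10. Npc1, its partner in the lysosomal membrane, differed by at most 0.08 in size in any comparison. Stard4, a cytosolic sterol carrier, differed by -0.02 to 0.30.

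Markers of adipocytes and macrophages varied with some of the uptake and efflux genes. The level of a marker list on an array was taken as the mean, over its genes, of the log2 level minus that gene's mean over the 15 arrays. White adipocyte markers, at 8 of 10 measured, had lower means with diabetes in ApoE null aorta for 8 of 8 genes (median -0.61), and their level was -0.51, 0.13, -0.75 and -0.49 on diabetic replicates 1 to 4 against 0.03 to 0.30 without diabetes. Replicate 2 thus stood apart in the adipocyte markers as it did in Scarb1, Cd36 and Abca1. It was also the highest ApoE null diabetic array in macrophage markers, at 0.34, and in endothelial markers, at 0.47. Between the diabetic genotypes 8 of 8 white adipocyte markers were higher in ApoE null/RAGE null aorta (median 0.45), where their level was -0.18 and -0.34 on replicates 9 and 10 and 0.35 and 0.45 on replicates 11 and 12. Brown adipocyte markers had medians of -0.90 and 0.69 in these comparisons, with 6 of 8 lower in the former and 6 of 8 higher in the latter. Ppargc1a (0.63 and -0.21) and Dio2 (0.27 and -0.27) went the other way in both. Of all genes, 50.2% were lower in the former and 49.4% higher in the latter. Without replicates 9 and 10 the medians between the diabetic genotypes were 0.79 for white and 1.09 for brown adipocyte markers.

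Macrophage markers, 13 of 13 measured, had higher diabetic means for 13 of 13 genes in ApoE null/RAGE null aorta (median 0.55) and 11 of 13 in ApoE null aorta (median 0.27). Of all genes, 44.2% and 49.8% had higher diabetic means there. Between the diabetic genotypes 49.4% of all genes were higher and 50.6% lower in ApoE null/RAGE null aorta. Their level was -0.01, 1.03, 0.49 and -0.21 on replicates 9 to 12 and -0.48 to -0.21 without diabetes, so replicate 10, highest in Abcg1, Mylip and Abca1, was also highest in macrophage markers. Between the diabetic genotypes 11 of 13 macrophage markers were higher in ApoE null/RAGE null aorta (median 0.25). Without replicates 9 and 10, 6 of 13 were, with a median of -0.0056. Skeletal muscle markers differed most, with 12 of 12 higher for diabetes in ApoE null/RAGE null aorta (median 4.12). The groups did not overlap for 12 of 12, against 6.68% of all genes. Smooth muscle markers had lower means between the diabetic genotypes for 9 of 10 genes (median -0.28), endothelial markers had higher diabetic means in ApoE null/RAGE null aorta for 9 of 10 (median 0.35), and the 7 Schwann cell markers measured had a median of 0.29 between the diabetic genotypes. Levels of the brightest markers over all arrays were 12.43 to 13.10 for Fabp4 and 10.79 to 12.46 for Cox8b (white and brown adipocyte), 9.23 to 10.69 for Csf1r (macrophage), 4.98 to 11.35 for Acta1 and 4.12 to 10.68 for Tnnc2 (skeletal muscle), 7.95 to 9.24 for Vwf and 8.02 to 8.44 for Esam (endothelium), and 9.70 to 10.18 for Pmp22 and 5.18 to 8.12 for Mbp (Schwann cell). None of the lists' genes passed the adjusted threshold in these comparisons. Without replicates 9 and 10 the medians for diabetes in ApoE null/RAGE null aorta were 0.40 for macrophage, 4.67 for skeletal muscle and 0.45 for endothelial markers, and those between the diabetic genotypes -0.34 for smooth muscle and 0.37 for Schwann cell markers. The part of any of these in the differences above was not tested.

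**Figure D4:**
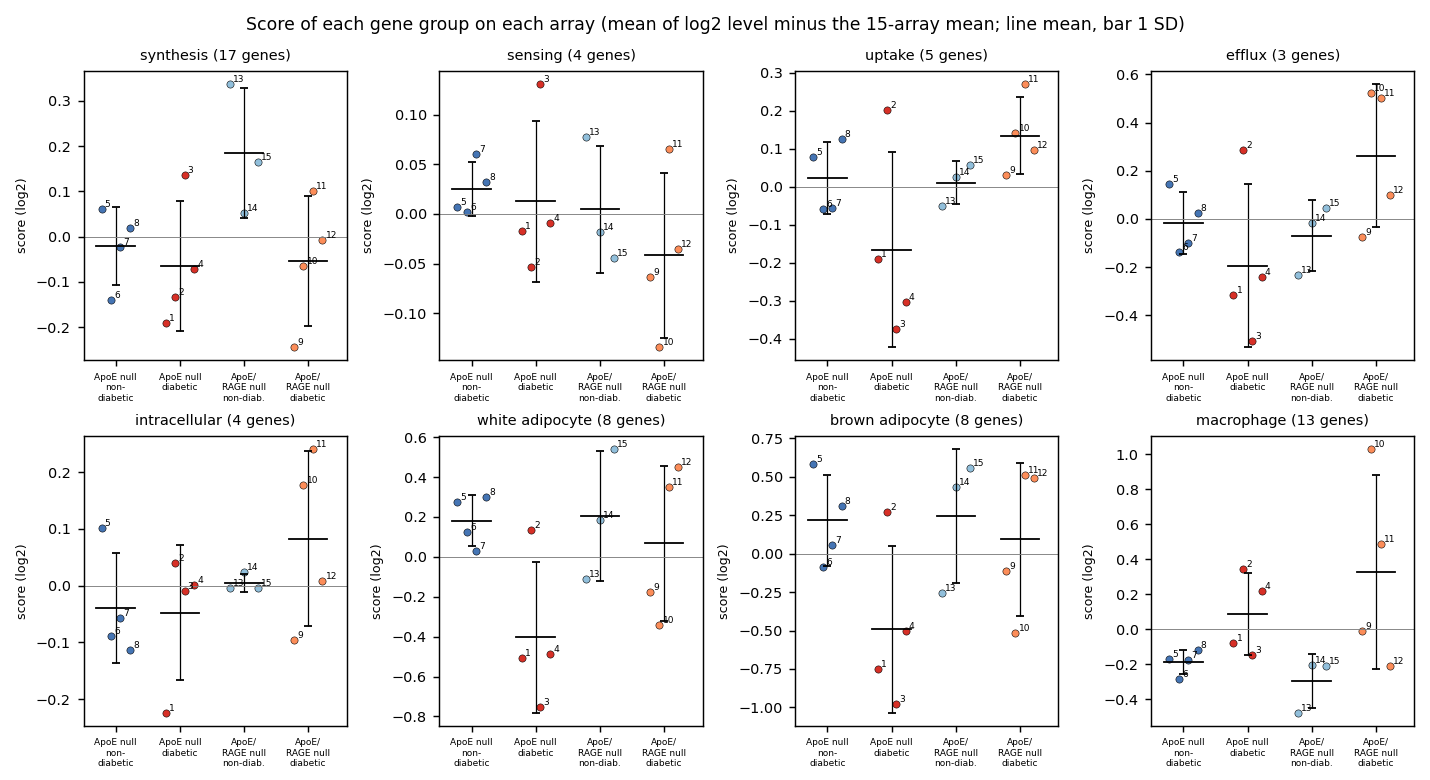
Level of the 5 role groups and of 3 marker lists on each array (vertical axis, mean log2 level minus the 15-array mean, averaged over the genes) by group, with replicate numbers, means and bars of 1 SD. ApoE null diabetic replicate 2 is the highest of its group in uptake, efflux, intracellular genes and all 3 marker lists, and replicate 10 is the highest array in efflux and macrophage markers.

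Within the labelled groups, genes differed across mice in which marker level they followed. Each of the 33 genes was set against 3 marker levels over the 15 arrays with group means removed, which makes 99 relations, with permutation p-values adjusted over them. Replicates 9 to 12 were centred together, although the label of replicates 9 and 10 is in doubt. Their white adipocyte level was -0.18 and -0.34, against 0.35 and 0.45 on replicates 11 and 12. A genotype difference within that group would thus count as variation among its mice. No correlation is given without replicates 9 and 10 together. The permutations shuffled the deviations over all arrays, as for the pairs above, so the p-values can again be too small. The smallest p they can give is 1e-05. Both Pearson and Spearman correlations passed for 3 genes with the macrophage level, all positive, and for 3 positive and 2 negative with the white adipocyte level.

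The genes that passed with the macrophage level were the LXR targets. Abcg1 had r = 0.926 and rho = 0.904 (permutation p = 1e-05 for both, adjusted 0.00033), Abca1 r = 0.860 and rho = 0.907 (permutation p = 2e-05, adjusted 0.000495) and Mylip r = 0.760 and rho = 0.757 (permutation p = 0.00053 and 0.00148, adjusted 0.00525 and 0.0133). Without replicates 10 and 12, the arrays farthest from the median, r was 0.873, 0.876 and 0.714. Nr1h3, which encodes LXR alpha itself, had r = -0.02 with the macrophage level, but 0.737 without replicates 10 and 12. Cd36 and Lipa likewise went from 0.0886 and 0.357 to 0.82 and 0.929. The contrast of these genes with the LXR targets thus rests on those 2 arrays.

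Nr1h3 passed with the white adipocyte level, at r = 0.893 and rho = 0.900 (permutation p = 3e-05, adjusted 0.000594). Cd36 did so at r = 0.952 and rho = 0.950 (permutation p = 1e-05, adjusted 0.00033), and Lipa at r = 0.784 and rho = 0.771 (permutation p = 0.00078 and 0.00118, adjusted 0.00702 and 0.013). Srebf2 ran against it at r = -0.792 and rho = -0.711 (permutation p = 0.0004 and 0.00398, adjusted 0.0044 and 0.0328), and Sqle at r = -0.655 and rho = -0.682 (permutation p = 0.00795 and 0.00668, adjusted 0.0463 and 0.0461). Without replicates 2 and 12 these were 0.853, 0.945, 0.729, -0.788 and -0.625 in the order given. The brown adipocyte level gave 4 positive genes, Cd36, Nr1h3, Lipa and Tm7sf2, at r = 0.926, 0.840, 0.833 and 0.695, and Srebf2 at r = -0.833. Of the 17 synthesis enzymes, 0 passed by both correlations with the macrophage level. Mvk came nearest, at r = -0.648 and rho = -0.814 (adjusted permutation p = 0.0553 and 0.0052), with r = -0.692 without replicates 10 and 12. The median r of the 17 was 0.01 with white adipocyte and -0.03 with macrophage markers.

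**Figure D5:**
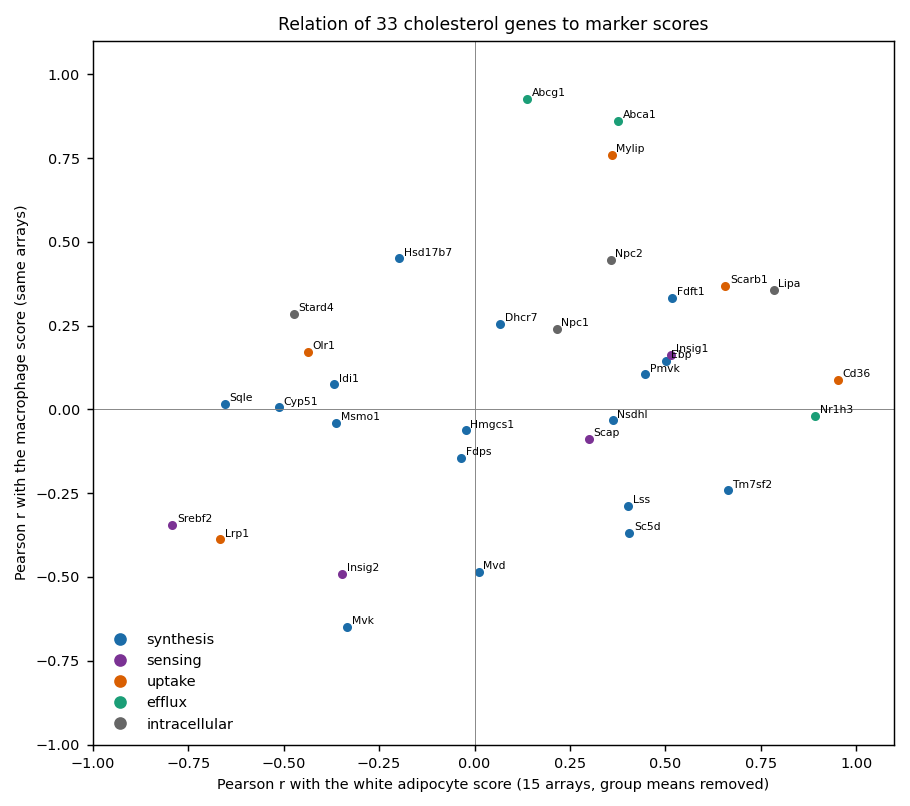
Pearson r of each of the 33 genes with the white adipocyte level (horizontal axis) and with the macrophage level (vertical axis) across the 15 arrays with group means removed, coloured by role. Abcg1, Abca1 and Mylip lie at the top (r of 0.76 to 0.93 with macrophage markers), Cd36 and Nr1h3 at the right (0.95 and 0.89 with white adipocyte markers), and the synthesis enzymes spread around the middle. Without replicates 10 and 12, Lipa, Cd36 and Nr1h3 had r of 0.929, 0.82 and 0.737 with macrophage markers.

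Other genes of sterol metabolism, 31 of 34 measured, did not pass either. At an unadjusted p under 0.05, 2 were higher and 8 lower for diabetes in ApoE null aorta, 1 and 1 for RAGE deletion without diabetes, 3 and 4 for diabetes in ApoE null/RAGE null aorta, and 7 and 4 for RAGE deletion in diabetic aorta. The shares of all genes, higher and lower, were 7.27% and 5.94%, 1.34% and 1.28%, 3.74% and 3.97%, and 6.62% and 11.3% in the same order. The list's medians were -0.04, 0.00, -0.02 and 0.13, the latter pair being 0.06 and 0.08 without replicates 9 and 10. Aacs, which feeds ketone bodies into lipid synthesis, had the smallest p of the list, at -1.22 ± 0.24 (SE, limma adjusted p = 0.222) for diabetes in ApoE null aorta, ahead of the bile acid enzyme Hsd3b7 at -0.41 and the sterol transporter Gramd1a at -0.32. For RAGE deletion without diabetes the smallest p were those of the endosomal sterol carrier Stard3 at -0.33, the transporter Abca7 at 0.36 and Gramd1c at 0.32. Gramd1c, at -0.54, also led for diabetes in ApoE null/RAGE null aorta, with the oxysterol-binding protein Osbp at -0.26 and the hydroxylase Ch25h at 0.79. Between the diabetic genotypes Osbp at -0.30, Gramd1a at 0.37 and the caveolar protein Cav1 at -0.31 came nearest to the threshold, with limma adjusted p of 0.0908, 0.0924 and 0.104.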

How the data were processed

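RNA of 15 whole aortas was hybridised to Affymetrix arrays, and the authors deposited log2 levels normalised by RMA, per the series design and the submitters' processing notes. The design says that arrays of each genotype and disease state were normalised together, and whether that means each state apart was not settled. Of 45101 probe sets 64 controls were left out, and 34945 of the rest had 1 gene in the annotation, 932 several and 9160 none; symbols were updated by Entrez ID for 34741. With limma 3.58.1 in R 4.3.3 a mean per group was fitted to all 15 arrays and moderated by eBayes, with Benjamini-Hochberg adjustment over 45037 probe sets, as tested on simulated data. The array number limits precision. The members and gene lists were chosen with earlier results of these data known. All 33 members could be named; the 6 with the smallest p in each comparison, the 3 of the other sterol genes and the 2 brightest of each marker list have values, and Dhcr7, Sqle, Cd36, Lipa and Npc2 were added after their values were seen. The count of synthesis genes above 0 was also added then. Alternatives were other normalizations, filters, variance models, probe set rules and arrays left out. Promoters came from RefSeq (GRCm38.p6). Each mouse is 1 replicate.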

Additional observations from a re-analysis of the deposited data

Results flagged for a closer look

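In 3 of 99 combinations of a member gene and a group of 4 mice, 1 array stood far from the others by Dixon's test, which by chance picks out about 1 in 20 such groups. Scarb1 measured 7.80 on ApoE null diabetic replicate 2, against 6.52 to 6.61 on the other 3. Abca1 measured 10.11 on ApoE null non-diabetic replicate 5, against 9.98 to 9.99, and Npc2 measured 10.84 on that array, against 10.54 to 10.57.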

How the results depend on the processing

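No paired analysis was possible because the replicate numbers run from 1 to 15 with none shared between groups. The count of genes past the adjusted threshold was 0 under the alternatives run, except for RAGE deletion in diabetic aorta with 1 mouse left out, where it ran from 0 to 3. With 1 mouse left out, counts at an unadjusted p under 0.05 ran from 1 to 8 for diabetes in ApoE null aorta, 0 to 2 for RAGE deletion without diabetes, 1 to 8 for diabetes in ApoE null/RAGE null aorta, 3 to 12 for RAGE deletion in diabetic aorta and 1 to 7 for the interaction. Synthesis genes above 0 ran from 0 to 4 for diabetes in ApoE null/RAGE null aorta (2 with all mice). The uptake median ran from 0.32 to 0.63 for RAGE deletion in diabetic aorta and from 0.27 to 0.64 for the interaction, and the sensor median from 0.0055 to 0.14 for diabetes in ApoE null aorta and from -0.21 to -0.10 for RAGE deletion in diabetic aorta. Sqle for RAGE deletion without diabetes ran from -0.046 without replicate 13 to 0.70 without replicate 15. With array weights the unadjusted counts were 3 for diabetes in ApoE null aorta and 10 for RAGE deletion in diabetic aorta; with dimmer probe sets left out, or a trended robust variance, the interaction count was 1. Leaving out dimmer probe sets moved the uptake median for diabetes in ApoE null aorta to -0.23. Leaving out shared probe sets moved it to 0.27 for RAGE deletion in diabetic aorta and 0.29 for the interaction. Synthesis genes above 0 for diabetes in ApoE null/RAGE null aorta were 1 with quantile normalization or median centring, and 0 with the mean over a gene's probe sets. Without replicates 9 and 10, that count was 4, the unadjusted counts were 0 for diabetes in ApoE null/RAGE null aorta and 9 for RAGE deletion in diabetic aorta, the uptake median in the former was 0.26 and the synthesis median of the interaction was -0.018. The cause of these shifts was not tested, beyond the fewer mice or probe sets fitted. Signal limits Olr1, whose probe set lies near the bottom of the scale.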
